A study of Rattus norvegicus with 6 samples.

Results

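Cytochromes P450 of the Cyp2a, Cyp2d, Cyp2e and Cyp2j subfamilies were followed in the liver of rats given o-anthranilic acid. The 10 genes were Cyp2a1, Cyp2a2, Cyp2a3, Cyp2d1, Cyp2d2, Cyp2d3, Cyp2d4, Cyp2d5, Cyp2e1 and Cyp2j4. They were found on the array by matching the RefSeq accession of each non-control probe to the gene table, which gave 15 of the 61657 probes, for 10 of the 15284 genes named on the array. Liver RNA came from male Sprague-Dawley rats, bought at an age of 5 weeks and kept on a basal diet. The vehicle, corn oil, was given to 3 rats, and a dose of 1000 mg/kg/day of o-anthranilic acid to the other 3, with 1 single-colour array for each rat. Dosing lasted 9 weeks in the treatment protocol and the series design names day 28, so the duration is not settled.

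Cytochromes P450 are haem enzymes of the endoplasmic reticulum that insert an oxygen atom into lipophilic compounds, with electrons passed on by NADPH-cytochrome P450 reductase and cytochrome b5. Many hepatic P450 genes of the Cyp2b and Cyp3a subfamilies are switched on by foreign compounds, whereas the Cyp2d genes are known as largely constitutive and refractory to such inducers. Cyp2e1 oxidises ethanol, acetone and other small molecules, lies mainly in hepatocytes around the central vein, and is regulated to a large part after transcription. Rat Cyp2a1 and Cyp2a2 are steroid hydroxylases, of which Cyp2a2 is the form of the adult male liver, and Cyp2a3 is known from the airway epithelium of the rat. Cyp2j enzymes convert arachidonic acid to epoxides. Anthranilic acid is 2-aminobenzoic acid, a breakdown product of tryptophan.

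In the RefSeq table of the GRCr8 assembly, Cyp2d4, Cyp2d5, Cyp2d1, Cyp2d3 and Cyp2d2 follow one another on chromosome 7 with no other protein-coding gene between them. Cyp2a3, Cyp2a1 and Cyp2a2 do so on chromosome 1, where Cyp2e1 lies apart, and Cyp2j4 lies between Cyp2j16 and Cyp2j3 on chromosome 5. Of the 10 genes, 9 had an upstream sequence in the RefSeq promoter table (GRCr8). The 120 bases before the annotated start of 6 genes are shown, to compare the copies upstream of their starts. Capitals mark 2 motifs, each searched on both strands. One is the TATA box TATAAA, and the other is a direct repeat, GGNCA followed by AA and GGNCA again, of the type that nuclear receptors such as HNF4 bind.
Cyp2d1, minus strand, chr7:115793431-115793550: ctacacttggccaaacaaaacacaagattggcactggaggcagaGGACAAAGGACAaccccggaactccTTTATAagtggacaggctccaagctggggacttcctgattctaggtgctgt
Cyp2d3, minus strand, chr7:115802143-115802262: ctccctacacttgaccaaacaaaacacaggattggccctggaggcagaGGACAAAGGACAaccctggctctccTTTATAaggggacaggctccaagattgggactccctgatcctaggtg
Cyp2d5, minus strand, chr7:115784488-115784607: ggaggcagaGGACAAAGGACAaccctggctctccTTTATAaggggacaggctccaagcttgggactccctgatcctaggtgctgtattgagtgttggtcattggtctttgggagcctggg
Cyp2d4, minus strand, chr7:115771822-115771941: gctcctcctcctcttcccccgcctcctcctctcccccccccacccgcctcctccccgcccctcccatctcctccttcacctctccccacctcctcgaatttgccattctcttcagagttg
Cyp2e1, plus strand, chr1:205269847-205269966: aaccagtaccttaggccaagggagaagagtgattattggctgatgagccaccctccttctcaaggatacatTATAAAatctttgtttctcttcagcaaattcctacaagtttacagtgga
Cyp2j4, minus strand, chr5:116323043-116323162: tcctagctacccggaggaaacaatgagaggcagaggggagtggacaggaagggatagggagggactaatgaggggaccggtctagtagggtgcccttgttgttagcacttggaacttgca

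The direct repeat was found within 250 bases before the start of Cyp2d1, Cyp2d3 and Cyp2d5, against 0.149% of the 33469 promoters of that table. TATAAA was found for 6 of the 9 genes, namely Cyp2a1, Cyp2a3, Cyp2d1, Cyp2d3, Cyp2d5 and Cyp2e1, against 12.9% of all promoters. The matches of Cyp2d1, Cyp2d3 and Cyp2d5 were to its reverse complement, TTTATA. They lie in upstream sequences that are near copies, so they are not independent, and this holds for the direct repeat too. A D-box, TTANGTAA, was found for none of the 9, against 2.04%. These matches describe letters in a window and not bound sites. The 300-base windows of the table hold 250 bases before the start and the rest after it. Over these windows, Cyp2d1 and Cyp2d3 were identical at 91.1% of 292 aligned bases. Cyp2d1 and Cyp2d5 were identical at 93.2% of 264, and Cyp2d3 and Cyp2d5 at 96.2% of 261. Cyp2d1, Cyp2d3 and Cyp2d5 are thus near copies around their starts. Identity in these windows does not show how alike the whole transcripts are, and neither probe sequences nor full transcripts were compared here. A signal of Cyp2d1, Cyp2d3 or Cyp2d5 may include RNA of a neighbouring copy, which was not tested. Nor was it tested for Cyp2a1 and Cyp2a2, of which Cyp2a2 had no upstream sequence.

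Levels are given as the log2 of the processed signal relative to the 75th percentile of the array, which lay between 489 and 523. The share of probes well above background was 53.3% to 58.0%, and no spot was saturated. The hepatocyte markers albumin and transthyretin were at 9.39 to 9.65 on all 6 arrays. The summed linear signal of 10 hepatocyte markers was 5310 to 5460 in corn oil rats and 4970 to 5040 in treated rats, relative to the same percentile. The summed signal of 5 of 6 lymphocyte markers was 0.993 to 1.23 in corn oil rats and 1.78 to 1.88 in treated rats, with Cd3e not measured. All 4 erythroid markers summed to 470 to 818 with corn oil and to 687 to 934 with treatment. No gene of any marker list passed the test, and 0 of all 10257 named genes did. Of the 5 measured lymphocyte markers, 4 had an unadjusted limma p under 0.05, all higher in treated rats, against 11.6% of all genes. Of the 10 hepatocyte markers, 9 were lower in treated rats, against 48.0% of all genes, and 1 had an unadjusted limma p under 0.05. Their median difference was -0.09, but -0.02 with quantile normalisation and -0.04 with median scaling, so its size depended on the scaling. The part of these shifts in the P450 values was not tested. In whole liver, fewer cells of a type and less RNA per cell cannot be told apart.

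Livers of treated rats had P450 signals close to those of corn oil rats for all 9 genes that could be tested. Differences, anthranilic acid minus corn oil, ran from -0.16 for Cyp2d4 to 0.23 for Cyp2e1, and their median over the 14 tested probes was 0.03, against 0.00 over all 33428 tested probes. By limma with Benjamini-Hochberg adjustment over all tested probes, 0 of the 14 passed, where 0.0329% of all tested probes did, and the smallest adjusted p among them was 0.576. At unadjusted p under 0.05 there were also 0 of 14, against 12.2% of all tested probes. All 14 probes had a 95% interval inside a 2-fold change in either direction, which held for 88.8% of all tested probes. For 8 of the 14, against 66.1% of all, the interval lay inside a 1.5-fold change.

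**Figure D1:**
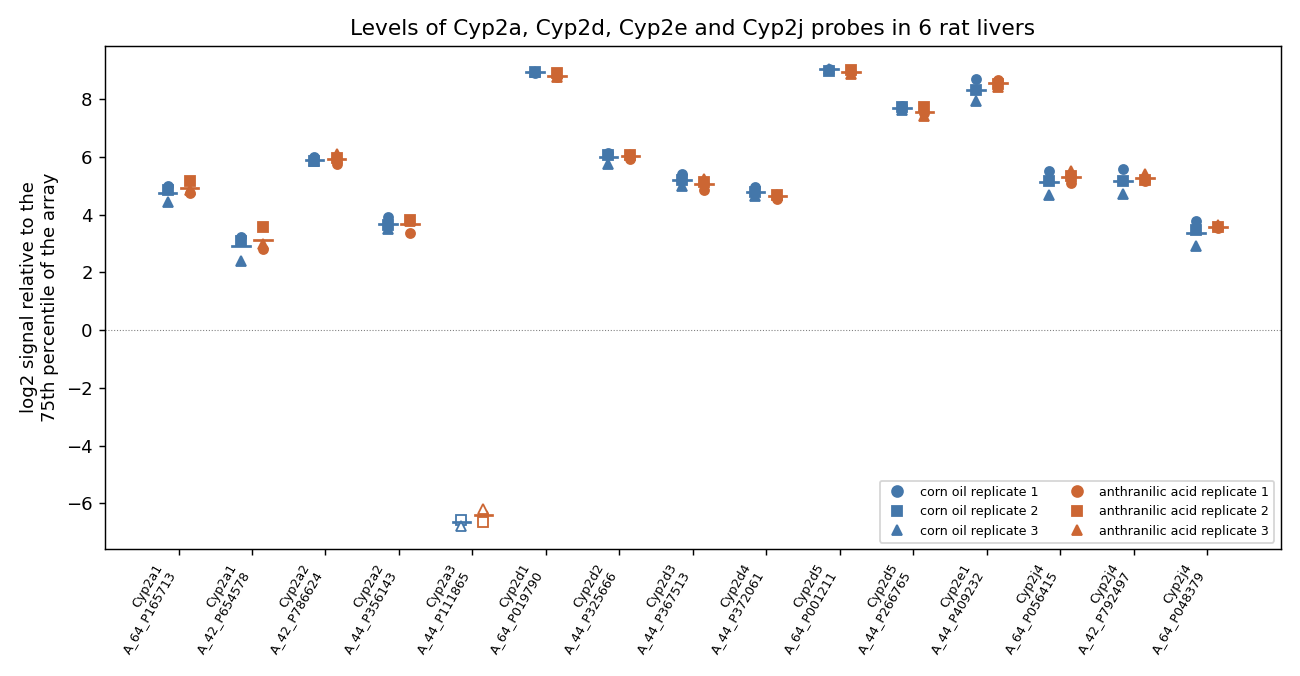
Log2 signal relative to the 75th percentile of the array (y axis) for the 15 probes (x axis), with 1 point per rat, shape for the replicate and a bar for the group mean. Open points mark Cyp2a3, not well above background on any array. The groups overlapped for all tested probes except that of Cyp2d1, and levels of different probes cannot be set against each other because probes differ in brightness.

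Cyp2e1 had 1 probe, A_44_P409232. Its level was 8.69, 8.34 and 7.94 in the 3 corn oil rats and 8.68, 8.54 and 8.44 in the 3 treated rats. The treated values lay within the range of the corn oil values. The mean was 8.32 ± 0.37 (SD, n = 3) with corn oil and 8.55 ± 0.12 (SD, n = 3) with anthranilic acid. The difference was 0.23 (SE 0.19, limma adjusted p = 0.643), with a 95% interval of -0.24 to 0.70, or 0.848- to 1.63-fold. A rise of Cyp2e1 RNA above 1.63-fold therefore lay outside the interval.

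Cyp2j4 was measured by 3 probes, and the groups overlapped at each. The brightest, A_64_P056415, was at 5.52, 5.18 and 4.69 with corn oil and at 5.11, 5.33 and 5.50 with anthranilic acid. Probe A_42_P792497 was at 5.58, 5.17 and 4.71 with corn oil and at 5.18, 5.21 and 5.43 with anthranilic acid. Probe A_64_P048379 was at 3.77, 3.47 and 2.90 with corn oil and at 3.53, 3.56 and 3.64 with anthranilic acid. At each probe the highest and the lowest of the 6 livers were both corn oil livers, and the treated ones lay between them. The differences were 0.19 (SE 0.22), 0.12 (SE 0.22) and 0.19 (SE 0.22), with limma adjusted p of 0.752, 0.845 and 0.735.

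Cyp2a1 and Cyp2a2 form the steroid-hydroxylating part of the set. Cyp2a1 probe A_64_P165713 was at 5.00, 4.85 and 4.45 with corn oil and at 4.74, 5.17 and 4.85 with anthranilic acid. The dimmer Cyp2a1 probe, A_42_P654578, was at 3.22, 3.10 and 2.40 with corn oil and at 2.81, 3.58 and 3.00 with anthranilic acid. At both probes treated replicate 2 was the highest liver and corn oil replicate 3 the lowest, and the groups overlapped. The differences were 0.15 (SE 0.18) and 0.22 (SE 0.28), with limma adjusted p of 0.751 and 0.768. The second of these had the widest interval of the set, -0.46 to 0.91.

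Cyp2a2, the form of adult male liver, varied less. Its probe A_42_P786624 was at 6.0, 5.85 and 5.85 with corn oil and at 5.75, 5.98 and 6.09 with anthranilic acid. Its other probe, A_44_P356143, was at 3.91, 3.64 and 3.52 with corn oil and at 3.37, 3.83 and 3.79 with anthranilic acid. The groups overlapped at both, with differences of 0.04 (SE 0.11) and -0.02 (SE 0.17) and limma adjusted p of 0.911 and 0.963. The first of these turned to -0.05 with quantile normalisation and the second to 0.03 with median scaling. Cyp2a3 was not well above background on any of the 6 arrays, at -6.79 to -6.20, and was not tested. Of the 5 markers of nasal and lung epithelium, 1 could be measured, Scgb1a1, at -4.50 to -3.59. Scgb1a1 was well above background on 5 of 6 arrays.

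Among the Cyp2d genes, the main hydroxylases of many basic drugs, 5 of 6 probes had differences below 0, where 49.9% of all tested probes did. Of the 6, 0 passed. Probes of the same gene, Cyp2d5, are among them, and all were read in the same rats, so they are not independent. Cyp2d1 was at 8.93, 8.94 and 8.94 with corn oil and at 8.79, 8.90 and 8.77 with anthranilic acid. It was the only tested probe of the 14 whose groups did not overlap, where 20.3% of all tested probes had such groups. The difference was -0.12 (SE 0.08, limma adjusted p = 0.576), with a 95% interval of -0.31 to 0.08. The 3 corn oil livers spanned 0.02 on this scale, the narrowest range of any tested probe of the set.

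Cyp2d5 probe A_64_P001211 was at 9.06, 9.0 and 9.05 with corn oil and at 8.95, 9.02 and 8.88 with anthranilic acid. Its dimmer probe A_44_P266765 was at 7.77, 7.72 and 7.63 with corn oil and at 7.53, 7.74 and 7.44 with anthranilic acid. Treated replicate 2 lay among the corn oil livers at both probes, while treated replicates 1 and 3 were lower. The differences were -0.08 (SE 0.08, limma adjusted p = 0.691) and -0.13 (SE 0.11, limma adjusted p = 0.626). The brightest spot of the set reached 29.0% to 35.3% of the scanner's saturation value on the 6 arrays.

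Cyp2d2 was at 6.14, 6.08 and 5.76 with corn oil and at 5.92, 6.08 and 6.06 with anthranilic acid, a difference of 0.03 (SE 0.13). Cyp2d3 was at 5.40, 5.22 and 4.98 with corn oil and at 4.85, 5.15 and 5.25 with anthranilic acid, a difference of -0.12 (SE 0.15). Cyp2d4, known in rat also from the brain, was at 4.96, 4.78 and 4.64 with corn oil and at 4.54, 4.69 and 4.68 with anthranilic acid, a difference of -0.16 (SE 0.11). The groups overlapped for each of these genes, and the limma adjusted p-values were 0.945, 0.778 and 0.582. The sign for Cyp2d2 turned with quantile normalisation, to -0.05. Leaving out 1 array moved Cyp2d3 between -0.23 and 0.00, the latter without treated replicate 1, and Cyp2d4 between -0.23 and -0.07.

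**Figure D2:**
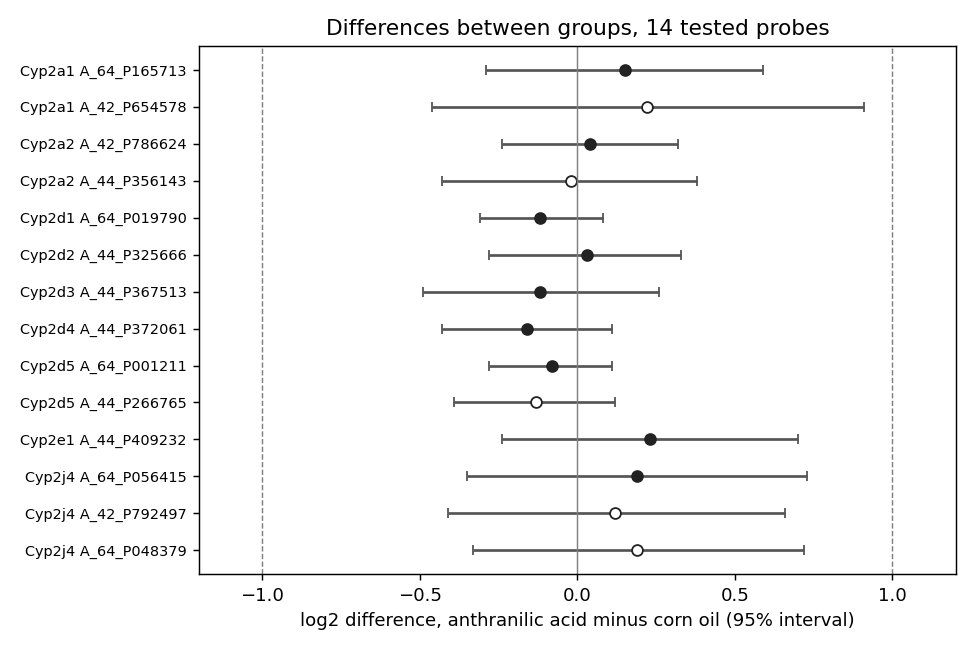
Log2 difference, anthranilic acid minus corn oil (x axis), with its 95% interval from limma for the 14 tested probes (y axis). Filled points are the brightest tested probe of each gene, and dashed lines mark a 2-fold change, which no interval reached.

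Probes of 1 gene gave shifts close to each other. Of 6 pairs of probes of Cyp2a1, Cyp2a2, Cyp2d5 and Cyp2j4, 0 differed in their shift by limma over all 9801 same-gene pairs on the array, where 0.0306% did, and 0 were under an unadjusted p of 0.05, against 7.48%. The differences between shifts ran from -0.07 to 0.07, and their 95% intervals reached from -0.25 to 0.38 in all. For Cyp2j4 the gap between 2 probes within an array varied less from rat to rat than the probes did. Its 3 gaps spanned 0.16, 0.19 and 0.28 over the 6 arrays, while each of the 3 probes spanned 0.83 to 0.87 over the corn oil rats alone. The gap spanned 0.16 for Cyp2d5, 0.29 for Cyp2a2 and 0.46 for Cyp2a1, against a median of 0.36 and quartiles of 0.22 and 0.60 over all pairs. The Cyp2a1 gap thus varied more than that median. The brighter probes of Cyp2d5 and Cyp2a2 spanned at most 0.14 and 0.33 within a group, near the span of their gaps.

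Cyp2a1, Cyp2e1 and Cyp2j4 shared 1 low corn oil liver, a grouping made after the values were seen. Corn oil replicate 3 was the lowest of the 6 livers at all 6 probes of Cyp2a1, Cyp2e1 and Cyp2j4 and at that of Cyp2d2, thus at 7 of 14 tested probes, where 15.8% of all tested probes had their lowest value on that array. Corn oil replicate 1 was the highest corn oil liver at 13 of 14, against 33.0% of all. The corn oil range was 0.74 for Cyp2e1, against 0.24 in treated rats, and 0.83 for the brightest Cyp2j4 probe, against 0.39. For Cyp2a1 the treated range was nearly as wide, with 0.54 against 0.43 and 0.82 against 0.76 at its 2 probes. Over all 14 probes the corn oil range was the wider at 9, where 42.8% of all tested probes had the wider range in corn oil. These probes share the same 3 rats, and their values are not independent.

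**Figure D3:**
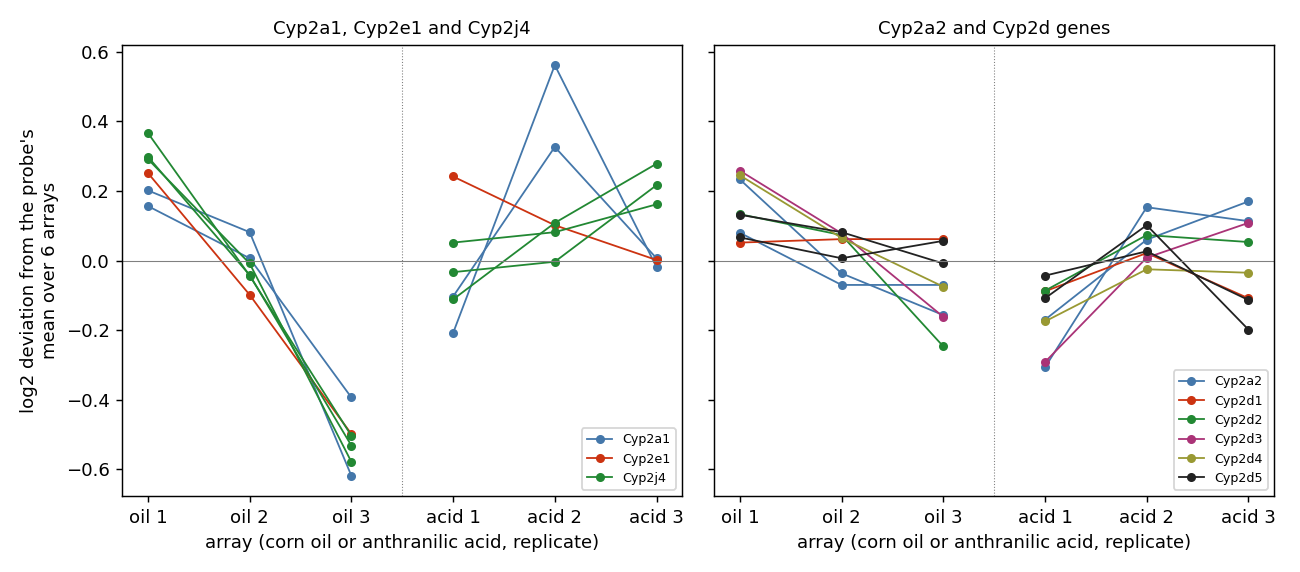
Deviation of each tested probe from its own mean over 6 arrays (y axis, log2) by array (x axis, where oil is corn oil and acid is anthranilic acid); lines join values of 1 probe and the replicates have no order. The left panel shows corn oil replicate 3 as the lowest point at all 6 probes of Cyp2a1, Cyp2e1 and Cyp2j4, and the right panel shows the narrower spread of Cyp2d1 and Cyp2d5.

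The sign of several differences turned without corn oil replicate 3. Leaving out the lowest corn oil liver can only raise the corn oil mean, so the direction of this change was fixed in advance. Cyp2a1 also moved, to 0.03 and 0.00 at its probes, without treated replicate 2. Without corn oil replicate 3, the Cyp2e1 difference was 0.04, Cyp2j4 was at -0.03, -0.10 and -0.05 at its 3 probes, Cyp2a1 at 0.00 and -0.03, and Cyp2d2 at -0.09. Without corn oil replicate 1, the Cyp2e1 difference was 0.41, and no probe passed in either case. Treated replicate 3 lay on slide 2 and the other 5 arrays on slide 1. Slide as a block gives the same comparison as slide 1 alone, and with it differences ran from -0.20 to 0.29 with a smallest adjusted p of 0.639. Within slide 1 each group filled a row of its own, so treatment and row cannot be told apart.

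Other enzymes and the cell type markers were read for corn oil replicate 3 beside these values. Ephx1, the microsomal epoxide hydrolase, was at 4.67, 4.99 and 3.85 with corn oil and at 4.85, 4.89 and 4.99 with anthranilic acid. Aldh1a1, a retinal dehydrogenase, was at 6.23, 5.91 and 4.61 with corn oil and at 6.08, 6.24 and 6.53 with anthranilic acid. Corn oil replicate 3 was the lowest liver for both, which were named after their values were seen. It was the lowest for 3 of the 13 measured genes of the ethanol and epoxide lists, the third being catalase, where 15.6% of all genes had their lowest value in that liver. Hepatocyte markers in that rat summed to 5440, between the values of the other corn oil rats. Erythroid markers summed to 818 there, against 470 and 611, and were highest in treated replicate 3, at 934. The part of these markers in the P450 values was not tested. Over 9839 genes above background on all 6 arrays, the profiles most like Cyp2e1 were those of Nrgn (r = 0.988), Papolg (r = 0.988) and Bcl7c (r = 0.983). Those most like Cyp2j4, the member with the largest SD over arrays, included Prorp (r = 0.982) and Metap2 (r = 0.979). These values describe 6 arrays and carry no test.

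Other genes of the Cyp2 family were measured for 18 of 27 listed members, and 0 passed by limma over all probes, where 0.00% of the 10257 genes did. Their median was -0.06, or -0.17 without corn oil replicate 3, against 0.01 over all genes, and 2 were under an unadjusted p of 0.05, where 11.6% of all genes were. Cyp2f4, known in rat from lung and liver, was at 4.57, 4.89 and 4.98 with corn oil and at 5.27, 5.42 and 5.48 with anthranilic acid (difference 0.57, SE 0.13, limma adjusted p = 0.240). Cyp2c12, the steroid sulphate hydroxylase of female rat liver, was at 4.14, 3.57 and 4.68 with corn oil and at 1.96, 2.87 and 3.60 with anthranilic acid (difference -1.32, SE 0.46, limma adjusted p = 0.371). The groups were apart for Cyp2f4 and overlapped for Cyp2c12. Cyp2j3, the neighbour of Cyp2j4, was at -0.19 (SE 0.13).

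Partners of the P450 enzymes gave 0 of 6 calls by limma, with 2 under an unadjusted p of 0.05, where 11.6% of all genes were. The membrane protein Pgrmc1, which binds haem, was at 0.23 (SE 0.09, limma adjusted p = 0.394) and cytochrome b5, Cyb5a, at 0.24 (SE 0.09, limma adjusted p = 0.401). The reductase Por was at -0.32 (SE 0.24). For haem supply 0 of 8 passed, and 1 was under an unadjusted p of 0.05. The median was 0.10, and 0.04 to 0.14 without 1 array. That gene, Alas1, which catalyses the first step of haem synthesis, was at 7.32, 7.33 and 6.57 with corn oil and at 6.31, 6.79 and 6.16 with anthranilic acid (difference -0.65, SE 0.26, limma adjusted p = 0.401). The groups overlapped for Alas1, since treated replicate 2 was above corn oil replicate 3. Cpox was next, at 0.18 (SE 0.11).

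Regulators of hepatic P450 genes were measured for 18 of 19 listed genes. By limma 0 passed, with a median of 0.06, and 3 of 18 were under an unadjusted p of 0.05, where 11.6% of all genes were. The aryl hydrocarbon receptor Ahr was at -0.86 (SE 0.18, limma adjusted p = 0.218) and the clock-linked factor Tef at 0.37 (SE 0.11, limma adjusted p = 0.332). Hnf4a, a main activator of liver P450 genes, was at -0.14 (SE 0.13).

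Cyp2e1 belongs to the pericentral zone, so other genes of that zone were set beside it. Of 12 measured pericentral genes 0 passed by limma. With a median of -0.39, 10 were below 0, where 48.0% of all genes were, and 3 were under an unadjusted p of 0.05, against 11.6% of all. The ammonium transporter Rhbg was at 1.24, 0.33 and 0.20 with corn oil and at -0.36, -0.88 and 0.02 with anthranilic acid (difference -1.0, SE 0.34, limma adjusted p = 0.364). Gulo, the last enzyme of vitamin C synthesis, was at -0.28 (SE 0.11, limma adjusted p = 0.395), and glutamine synthetase, Glul, at -0.54 (SE 0.21, limma adjusted p = 0.397). Beside them Cyp2e1 stood at 0.23. Rgn at 0.19 and Cyp27a1 at 0.25 were the only 2 of the 12 above 0. Those below 0 included Cyp7a1 at -1.09 (SE 1.08), Oat at -0.69, Axin2 at -0.65, Slc1a2 at -0.51 and Cyp1a2 at -0.07. Periportal genes had a median of 0.11 over 12 measured, and 0.03 to 0.23 without 1 array, the lowest without corn oil replicate 3 or treated replicate 2 and the highest without corn oil replicate 2. Of the 12, 0 passed and 4 were under an unadjusted p of 0.05, 3 of them higher and 1 lower, against 11.6% of all genes. The adhesion molecule Cdh1 was at 0.71 (SE 0.10, limma adjusted p = 0.120) and Hsd17b13 at 0.68 (SE 0.13, limma adjusted p = 0.207), and Cyp2f4 was also above 0. Pck1, a gluconeogenic enzyme, was at -0.64 (SE 0.16, limma adjusted p = 0.282) and serine dehydratase, Sds, at -0.69 (SE 0.39). The difference between the zones was not tested.

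**Figure D4:**
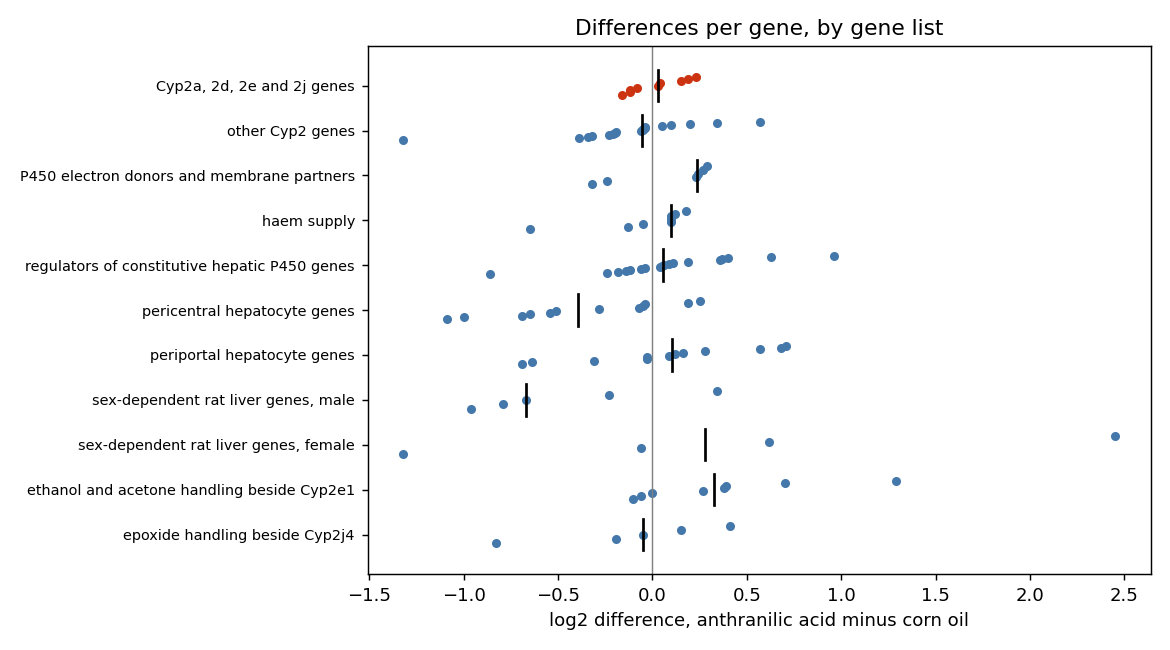
Log2 difference, anthranilic acid minus corn oil (x axis), of each measured gene, 1 point per gene, by gene list (y axis), with a bar at the list's median. The 9 measured Cyp2a, Cyp2d, Cyp2e and Cyp2j genes lie between -0.16 and 0.23, and no gene in any list passed the test. The highest point of the female list, Sult2a2, was above background on 4 of 6 arrays.

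Genes of the male liver, Cyp2c11, Cyp2c13, Cyp3a2, Cyp3a18 and Cyp4a2, had a median of -0.67, with 0 of 5 passing. Of the 5, 1 was under an unadjusted p of 0.05, where 11.6% of all genes were. Below 0 were 4 of the 5, against 48.0% of all genes. The median of the male list was -0.25 without treated replicate 2. Cyp3a2 was at -0.67 (SE 0.25, limma adjusted p = 0.387) and Cyp4a2 at -0.79 (SE 0.36, limma adjusted p = 0.426), beside Cyp2a2 at 0.04. Cyp2c13 went the other way, at 0.34 (SE 0.16, limma adjusted p = 0.437). Of the 4 genes of the female liver 0 passed and 1, Cyp2c12, was under an unadjusted p of 0.05, against 11.6% of all genes. Sult2a2 was at -3.60, -5.07 and -6.21 with corn oil and at -2.97, -0.45 and -4.12 with anthranilic acid, was well above background on 4 of 6 arrays, and passed the filter through the treated rats. The list's median was 0.28 with Sult2a2 and -0.06 over the 3 genes above background on all arrays. It was -0.04 without treated replicate 2 and 0.55 without corn oil replicate 3, so its sign was not settled. Of 8 genes for ethanol and related substrates 0 passed and 1 was under an unadjusted p of 0.05, against 11.6% of all genes. The median of the 8 was 0.32, and 0.18 to 0.40 without 1 array, the lowest without corn oil replicate 1. Adh7 was at 1.29 (SE 0.41, limma adjusted p = 0.341), Adh5 at 0.27 (SE 0.14) and catalase, Cat, at 0.00 (SE 0.18). Of the epoxide-handling genes, 5 of 8 were measured, 0 passed, 0 were under an unadjusted p of 0.05 and the median was -0.05. This median turned to 0.13 without treated replicate 3, which is the same comparison as slide as a block. Cyp4f1 was at 0.15 (SE 0.09), and the soluble epoxide hydrolase Ephx2 ranged from -0.81 to 3.17 over the 6 livers.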

How the data were processed

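Liver RNA of 6 rats was measured on single-colour Agilent arrays (Cy3), 1 per animal. Per the file headers, the deposited intensity values were made with Agilent Feature Extraction 10.7.1.1 (10.7 in the submitters' processing notes) on an rn4 design, with no scaling between arrays. The authors' deposited table holds a ratio of that signal to 1 value per array, and served as an alternative. Here the log2 processed signal was scaled to the 75th percentile of each array. The 14 flagged spots were left out. A probe was tested if well above background on all 3 arrays of a group and unflagged on at least 2 of each group (33428 probes). Accessions named 27460 of 61657 probes through RefSeq (GRCr8), and a gene was its brightest tested probe. Differences were fitted by limma 3.58.1, run in R 4.3.3 (two-sided, Benjamini-Hochberg over all tested probes, threshold 0.05, 4 residual and 2.30 prior degrees of freedom), tested on simulated data. Promoters were aligned with Biopython 1.88. The number of arrays limits precision. Replicates are different animals per the labels. The members, the gene lists and the naming rule (all members, and the 2 genes of each list with the smallest p) were chosen with earlier results of these data known. Same-numbered rats of the groups correlated in their deviations at 0.07, -0.05 and -0.04. Alternatives covered background correction, scaling, filter, variance model, slide, replicate number and each array left out. Some genes that the naming rule covers are not reported here.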

Additional observations from a re-analysis of the deposited data

How the results depend on the processing

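No member probe or gene passed under any alternative run, with a smallest adjusted p of 0.469 for Cyp2d4 without corn oil replicate 3, and no member probe pair did where pairs were refitted. The median over member probes was 0.03, from -0.08 to 0.13 without 1 array and -0.05 to 0.08 under the other settings. Of 233 member values under alternatives, 15 changed sign, and 0 of those passed. Cyp2a2 was at -0.05 and Cyp2d2 at -0.05 with quantile normalisation, Cyp2d2 at -0.02 with array weights, Cyp2a2 at -0.03 with slide as a block, and Cyp2a2 probe A_44_P356143 at 0.03 with median scaling. Without 1 array, Cyp2a1 ranged from 0.00 to 0.27 and its probe A_42_P654578 from -0.03 to 0.38, Cyp2a2 from -0.03 to 0.13 and its probe from -0.11 to 0.12, Cyp2d2 from -0.09 to 0.10, Cyp2d3 from -0.23 to 0.00, Cyp2d4 from -0.23 to -0.07, and Cyp2j4 from -0.03 to 0.38, with -0.10 to 0.34 and -0.05 to 0.39 at its other probes. Among lists of pathway genes, the medians of the female and epoxide lists changed sign, from -0.06 to 0.55 and from -0.10 to 0.13 over all alternatives. Counts over the array moved more. The 11 probes called became 50 with normexp, 45 with trended robust variance, 29 with array weights, 21 with median scaling, 6 with slide as a block, and 2 with the replicate block, without the filter or with the strict filter, and 2 to 8 without 1 array. The 0 genes called became 9 with normexp, 4 with trended robust variance, 2 with array weights, 2 with median scaling and 1 with slide as a block, and 0 to 2 without 1 array. The 3 probe pairs became 0 with the strict filter, 10 with slide as a block, 1 with the replicate block and 1 to 10 without 1 array. The replicate numbers mark different animals, and the block changed no call of a member. Median scaling moved the median of all probes to 0.052. The cause of these changes was not tested.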
